A study of Homo sapiens with 4 samples.

Results

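The 10 genes described here belong to the BCL2 family, whose proteins decide at the outer membrane of the mitochondrion whether a cell survives or enters apoptosis. They were taken by symbol from the deposited expression table, and all 10 were found among its 58735 genes. Each was measured by RNA-seq in 4 libraries, 1 of adherent cells and 1 of spheroids from each of the lines HCT116 and LOVO. Both are human cell lines derived from colorectal cancer, and the labels give every library the genotype WT. The adherent cells carried no treatment and grew in a serum-containing medium. According to the methods of the study, spheroids were grown in ultralow attachment dishes in a serum-free medium with growth factors. Elsewhere the study states that oxaliplatin, a platinum drug that crosslinks DNA, was present, at a concentration in another unit than in the labels, which give the spheroids a treatment of 1 mg/ml without naming a drug. Growth form, medium and drug therefore changed together and cannot be told apart in any spheroid comparison.

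Proteins of the family fall into 3 classes by role. The guardians BCL2, BCL2L1 (BCL-XL), BCL2L2 (BCL-W) and MCL1 hold the death-promoting members in check. The effectors BAX and BAK1 form pores in the outer mitochondrial membrane, through which cytochrome c reaches the cytosol and caspases are activated. The BH3-only proteins BCL2L11 (BIM), PMAIP1 (NOXA), BID and BIK sense stress and bind to guardians or effectors. What the classes share is the BH3 segment, a short helix that fits into a groove on the surface of a guardian. BIM binds all guardians, whereas NOXA binds mainly to MCL1.

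The sequences that define the family are shown first, because every member named in the results carries one. Each line gives the coding strand of 39 bases (13 codons) around the BH3 core of 1 member, read 5′ to 3′ from a GENCODE 29 transcript on GRCh38. Capitals mark the codon of the first core residue and the glycine and aspartate codons that follow it.
BCL2: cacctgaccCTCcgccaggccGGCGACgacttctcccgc
BCL2L1: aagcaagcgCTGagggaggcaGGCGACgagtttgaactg
BCL2L2: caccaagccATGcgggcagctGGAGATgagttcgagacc
MCL1: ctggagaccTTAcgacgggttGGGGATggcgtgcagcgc
BAX: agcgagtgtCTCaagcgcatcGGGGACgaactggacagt
BAK1: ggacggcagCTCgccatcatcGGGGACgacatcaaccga
BCL2L11: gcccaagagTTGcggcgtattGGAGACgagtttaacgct
PMAIP1: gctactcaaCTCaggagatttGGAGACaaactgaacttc
BID: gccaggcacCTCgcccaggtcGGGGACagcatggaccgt
BIK: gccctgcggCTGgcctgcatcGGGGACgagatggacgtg

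All 10 members held the core, defined here as leucine or methionine, any 3 residues, glycine and aspartate, and each coding sequence held it at 1 place. BCL2L2 was the member whose core began with methionine, and the other 9 began with leucine. Over the 39 bases, pairs of members shared from 28.2% (11 bases, BAK1 with BCL2L2 and BID with BCL2L2) to 66.7% (26 bases, BAK1 with BID and BAK1 with BIK). The guardians BCL2L1 and BCL2L2 shared 61.5% of the bases.

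The genes lie on 8 chromosomes of GRCh38. BCL2 spans chr18:63123346-63320128 on the minus strand and PMAIP1 chr18:59899948-59904306 on the plus strand. BID spans chr22:17734138-17774770 (minus) and BIK chr22:43110748-43129712 (plus). BCL2L1 lies at chr20:31664452-31723989 (minus), MCL1 at chr1:150574551-150579738 (minus), BCL2L2 at chr14:23298790-23311759 (plus), BAX at chr19:48954815-48961798 (plus), BAK1 at chr6:33572547-33580293 (minus) and BCL2L11 at chr2:111119378-111168447 (plus). Of the exonic bases of BCL2L1, 43.0% also lie in an exon of ABALON, an antisense gene on the opposite strand. Whether the counting used strand is not given in the sources used here, so reads of BCL2L1 and ABALON cannot be told apart over those bases. BCL2L2 shares 24.3% of its exonic bases with BCL2L2-PABPN1 and PPP1R3E, and BCL2L11 shares 10.9% with MIR4435-2HG. BAK1 transcripts share stretches of 50 bases with BAK1P1, a pseudogene, and BID transcripts with 35 genes elsewhere, so the values of BAK1 and BID depend on how such reads were assigned. BAX, PMAIP1, BIK and BCL2 shared no exonic base with another gene and no stretch of 50 bases with another transcript.

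The reads on genes numbered between 15483569 and 20429147 per library. Values are FPKM, which divide the fragments of a gene by its length in kilobases and by the size of the library in units of 1000000 fragments, so levels of different genes can be compared. Changes are differences of log2(FPKM + 1), a scale that understates the change of low genes. For each pair of libraries the log2 ratio of FPKM without a pseudocount is also given, with a 95% exact (Clopper-Pearson) interval computed from the reads. These intervals cover counting error only. With 1 library per condition no difference had a replicate check, and a p-value within a line could not be had. In tumour cell cultures, as in any bulk sample, fewer cells of a type and less RNA per cell cannot be told apart.

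Before the results, the labelled cell type was set against marker genes. Adherent HCT116 cells and HCT116 spheroids had 85.6 and 79.3 FPKM of EPCAM, an adhesion protein of epithelial cells, whereas the libraries labelled LOVO had 0.930 and 1.5. CDH1 (E-cadherin) was at 31.1 FPKM in both HCT116 libraries and at 0.117 and 0.00805 in those labelled LOVO, and CDX2, an intestinal transcription factor, was at 0 in the latter. The summed FPKM of 11 colon epithelial markers was 1754 and 1288 in HCT116 and 327 and 187 in LOVO, with 6 or 7 and with 3 or 4 of the 11 at 1 FPKM or more. LUM and DCN, matrix proteins of fibroblasts, stood at 31.4 and 10.4 FPKM in adherent LOVO cells and at 50.4 and 9.97 in LOVO spheroids, against 0 to 0.0198 in HCT116. Not all fibroblast markers followed: COL1A1 was at 5.51 and 15.5 FPKM in HCT116 and at 9.89 and 6.10 in LOVO, and COL1A2 was at 0.00534 FPKM or less in every library. The summed FPKM of 6 fibroblast markers was 5.6 and 16.1 in HCT116 and 54.0 and 72.8 in LOVO. The 6 immune markers summed to at most 2.09 FPKM in any library. The 4 endothelial markers summed to 0.306 and 0.762 FPKM in HCT116 and went from 1.13 to 7.84 in LOVO, mostly through PECAM1, an adhesion protein of endothelium and platelets, from 0.0359 FPKM (5 reads) to 6.35 FPKM (992 reads). COL3A1, a fibroblast collagen, went from 0.811 to 5.13 FPKM in LOVO. These markers moved with spheroid growth in LOVO, and their part in the LOVO spheroid values was not tested. KRT8 and KRT18, keratins of simple epithelia, were lower in LOVO but still expressed. KRT8 stood at 571 and 418 FPKM in HCT116 and at 189 and 81.6 in LOVO, adherent cells first. KRT18 stood at 253 and 206 FPKM in HCT116 and at 122 and 98.8 in LOVO. KRT19, another keratin among the markers, stood at 808 and 543 FPKM in HCT116 and at 14.9 and 4.85 in LOVO. The libraries labelled LOVO thus nearly lacked several defining markers of colon epithelium. The part of this in the differences between lines was not tested, and the line names below follow the labels.

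Mitochondrially encoded transcripts took 6.77% of the reads of adherent and 11.1% of those of spheroid HCT116 cells, against 3.65% and 3.97% in LOVO. This share moved with growth form in HCT116, and its part in the results was not tested.

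**Figure D1:**
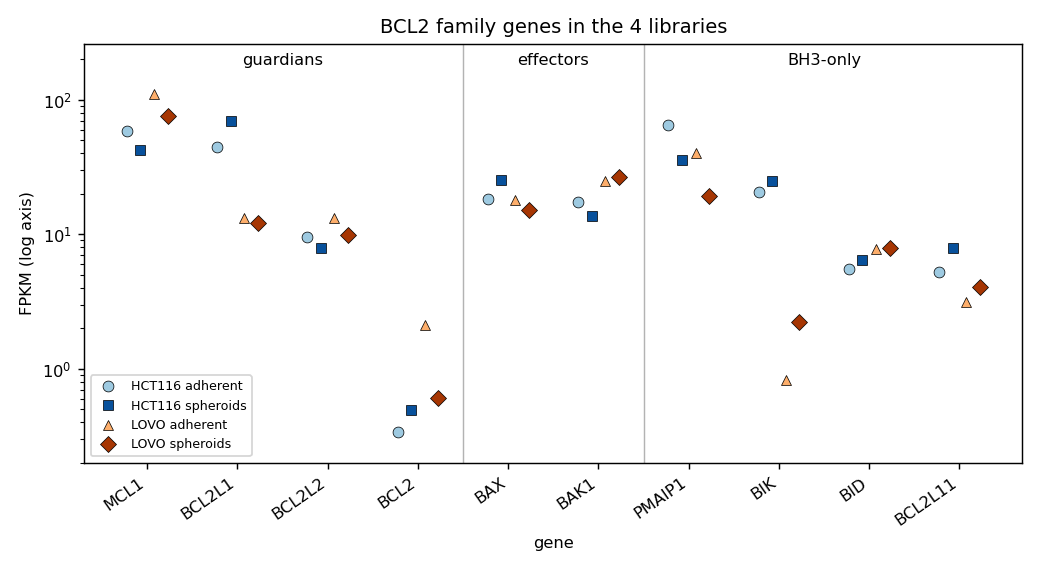
Level of each of the 10 genes (FPKM, log axis) in the 4 libraries, grouped by role. Each symbol is 1 library, and within a gene HCT116 stands left of LOVO and adherent cells left of spheroids. MCL1 and PMAIP1 lie between 19.1 and 111 FPKM in every library, BCL2 lies at or below 2.10, and BIK and BCL2L1 separate the lines.

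MCL1, a short-lived guardian, was the most abundant guardian in 3 of the 4 libraries. Its level was 58.6 FPKM in adherent and 42.6 in spheroid HCT116 cells, and 111 in adherent and 76.0 in spheroid LOVO cells. Both spheroid libraries were below their adherent counterparts, and both LOVO libraries were above both HCT116 libraries. The change of log2(FPKM + 1) with spheroid growth was -0.45 in HCT116 and -0.54 in LOVO. As log2 ratios of FPKM these were -0.46 (interval -0.53 to -0.40) and -0.54 (interval -0.59 to -0.50), so both exceeded counting error. MCL1 lay among the top 5% of the genes compared by level in every library, from percentile 95.4 to percentile 97.5 of the 14429 genes whose mean FPKM reached 1.

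BCL2L1, which encodes the long-lived guardian BCL-XL, had 44.4 FPKM in adherent and 69.9 in spheroid HCT116 cells. The LOVO levels were 13.3 FPKM in adherent cells and 12.2 in spheroids. Spheroid growth went with a change of 0.64 on the log2(FPKM + 1) scale in HCT116, the highest among the 10 genes there, and with -0.11 in LOVO. The log2 ratio of FPKM was 0.65 (interval 0.58 to 0.72) in HCT116, from 3001 and 3890 reads. In LOVO it was -0.12, and the interval from -0.26 to 0.02 included 0, so no change was detectable at this depth. The small LOVO change turned from -0.11 to 0.08 when FPKM were rescaled to TPM. The antisense gene ABALON, which covers part of BCL2L1, was higher in the HCT116 spheroids too and, unlike BCL2L1, higher in the LOVO spheroids, with 10.6 FPKM in adherent and 19.2 in spheroid HCT116 cells, and 0.410 and 1.07 in LOVO. Its part in the BCL2L1 values was not tested.

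BCL2L2, the guardian BCL-W, varied least among the guardians. It stood at 9.48 FPKM in adherent and 7.94 in spheroid HCT116 cells, and 13.1 in adherent and 9.80 in spheroid LOVO cells. The spheroid changes of -0.23 in HCT116 and -0.39 in LOVO on the log2(FPKM + 1) scale were in the direction of MCL1 and smaller. Their counting intervals as log2 ratios were -0.41 to -0.10 and -0.56 to -0.29.

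BCL2, the guardian that gave the family its name, was the lowest of the 10 genes in HCT116 and in LOVO spheroids. It had 0.338 FPKM in adherent and 0.491 in spheroid HCT116 cells, and 2.10 in adherent and 0.604 in spheroid LOVO cells, from 81, 97, 443 and 143 reads in this order. The adherent LOVO library was the one with a level above 1 FPKM. Spheroid growth went with a log2(FPKM + 1) change of 0.16 in HCT116 and -0.95 in LOVO. Without the pseudocount the log2 ratio was 0.54 in HCT116 (interval 0.10 to 0.98) and -1.80 in LOVO (interval -2.08 to -1.52), or 0.288 times the adherent level in the latter. BCL2 was the single member whose mean FPKM fell short of 1, so 9 of the 10 genes entered the comparisons across all genes.

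The effectors differed from each other in HCT116, where BAX was higher and BAK1 lower in spheroids. BAX, which is cytosolic until activated, had 18.2 FPKM in adherent and 25.3 in spheroid HCT116 cells, and 18.0 in adherent and 15.1 in spheroid LOVO cells. BAK1, which resides on mitochondria, had 17.2 FPKM in adherent and 13.6 in spheroid HCT116 cells, and 25.1 in adherent and 26.5 in spheroid LOVO cells. The adherent levels of BAX were nearly equal in both lines, and the spheroid levels lay on either side of them. In HCT116 the spheroid log2 ratio was 0.47 for BAX (interval 0.35 to 0.60) and -0.34 for BAK1 (interval -0.50 to -0.17). In LOVO it was -0.26 for BAX (interval -0.40 to -0.11) and 0.08 for BAK1, whose interval from -0.04 to 0.21 included 0. Under TPM the LOVO change of log2 level was -0.05 for BAX and 0.28 for BAK1. The ratio of BAX to BAK1 in FPKM went from 1.06 (interval 0.962 to 1.17) to 1.86 (interval 1.67 to 2.07) with spheroid growth in HCT116. In LOVO it went from 0.717 (interval 0.654 to 0.787) to 0.568 (interval 0.518 to 0.622). The difference between the lines in these changes has no replicate and was not tested.

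PMAIP1 had the largest change of log2(FPKM + 1) among the 10 genes in the spheroids of both lines. It encodes NOXA, which binds MCL1 and is a transcriptional target of the integrated stress response. Its level was 65.3 FPKM in adherent and 35.9 in spheroid HCT116 cells, and 40.4 in adherent and 19.1 in spheroid LOVO cells. Both spheroid libraries were below their adherent counterparts, at 0.549 times the adherent level in HCT116 and 0.473 times in LOVO. The log2(FPKM + 1) change was -0.85 in HCT116 and -1.04 in LOVO, and the log2 ratios were -0.87 (interval -0.96 to -0.77) and -1.08 (interval -1.20 to -0.96). Without a pseudocount, the low genes BCL2 and BIK had larger log2 ratios in LOVO (-1.80 and 1.45). In adherent HCT116 cells PMAIP1 was the highest of the 10 genes.

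BCL2L11, which encodes BIM, was higher in the spheroids of both lines. It had 5.28 FPKM in adherent and 7.90 in spheroid HCT116 cells, and 3.15 in adherent and 4.02 in spheroid LOVO cells. The log2(FPKM + 1) changes were 0.50 and 0.28, and the counting intervals of the log2 ratios were 0.44 to 0.73 in HCT116 and 0.16 to 0.55 in LOVO. Both HCT116 levels exceeded both LOVO levels.

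BIK, a BH3-only protein of the endoplasmic reticulum, was the gene that differed most between the libraries. Adherent and spheroid HCT116 cells had 20.7 and 25.1 FPKM of it, from 402 reads in each library. The adherent LOVO library had 0.819 FPKM (14 reads) and the LOVO spheroid library 2.24 FPKM (43 reads). Spheroid libraries were above adherent ones in both lines, by 0.27 in HCT116 and 0.83 in LOVO on the log2(FPKM + 1) scale. As a log2 ratio the LOVO change was 1.45, with an interval from 0.55 to 2.44 that reflects the few reads, and the HCT116 change was 0.28 (interval 0.08 to 0.48).

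BID, which caspase-8 cleaves to link death receptors to mitochondria, varied least among the 10 genes. It stood at 5.47 FPKM in adherent and 6.44 in spheroid HCT116 cells, and 7.79 in adherent and 7.96 in spheroid LOVO cells. The span over the 4 libraries was 0.47 on the log2(FPKM + 1) scale. The spheroid log2 ratio was 0.23 in HCT116 (interval 0.05 to 0.42) and 0.03 in LOVO, where the interval from -0.13 to 0.19 included 0.

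**Figure D2:**
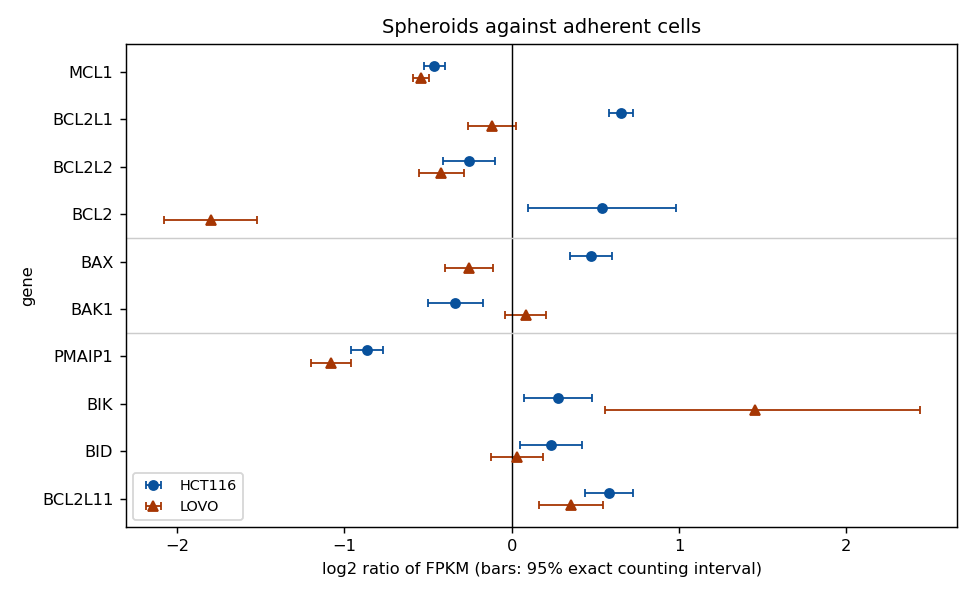
Log2 ratio of FPKM in spheroids to adherent cells for each of the 10 genes in HCT116 (circles) and LOVO (triangles). Bars are 95% exact counting intervals and do not include variation between cultures. MCL1, BCL2L2 and PMAIP1 lie below 0 in both lines, BIK and BCL2L11 lie above 0 in both, and BCL2 and BAX have intervals on opposite sides of 0.

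The spheroid changes of the family were set beside those of all genes. A log2(FPKM + 1) difference past 2 in size, the fold threshold in the methods of the study, was reached by 0 of the 9 genes in HCT116 spheroids and by 0 in LOVO spheroids. Among the 14429 genes compared, 0.707% passed it in HCT116 and 2.75% in LOVO. Past 1 in size, the counts were 0 of 9 in HCT116, against 5.52% of all genes, and 1 of 9 (PMAIP1) in LOVO, against 16.4%. The value of PMAIP1 in LOVO lay close to this threshold, at -1.04, and fell short of it under TPM (-0.86) and when centred on the median of all genes (-0.99), whereas BIK in LOVO passed it under TPM (1.36) and with a pseudocount of 0.1 (1.35) or 0.01 (1.44). The median change of the 9 genes was 0.20 in HCT116 and -0.11 in LOVO, beside medians of -0.03 and -0.06 over all genes compared.

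A single fit across the 4 libraries used the lines as replicates of each other, with cell line as a covariate and 1 residual degree of freedom. In this limma fit 0 genes were called between spheroids and adherent cells at a Benjamini-Hochberg adjusted p under 0.05 (0% of 14429), and 1545 had an unadjusted p under 0.05. The smallest limma adjusted p over all genes, 0.462, was shared by several genes, among them CASP9 with an unadjusted p of 0.0427. PMAIP1 had a mean log2 difference of -0.94 (SE 0.25) and this shared limma adjusted p, which is no rank among the genes. It was lower in 2 of 2 lines, with an unadjusted p of 0.0137 by limma. Over the alternatives its adjusted p ranged from 0.363 to 1. MCL1 had a mean log2 difference of -0.49 (SE 0.26, limma adjusted p = 0.491) and BIK of 0.55 (SE 0.27, limma adjusted p = 0.485). The remaining members had adjusted p-values from 0.537 to 0.892 by limma.

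The make-up of the family was read as shares of the summed FPKM. Guardians made up 46.0% of the summed FPKM of the 10 genes in adherent and 51.4% in spheroid HCT116 cells, against 59.4% and 56.8% in LOVO. The BH3-only genes made up 39.5% and 32.0% in HCT116 and 22.3% and 19.2% in LOVO. The effectors made up 14.5% and 16.6% in HCT116 and 18.4% and 24.0% in LOVO. The smaller BH3-only share of the spheroids rested on PMAIP1, since 3 of the 4 BH3-only genes were higher and 1 lower in the spheroids of each line. The larger effector share of LOVO spheroids came with a lower summed effector level in FPKM, 41.6 against 43.0, as the sum over the 10 genes went from 234 to 174 FPKM. These sums depend on the scaling and were not taken under TPM. There the LOVO change of log2 level was -0.05 for BAX and 0.28 for BAK1.

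MCL1 and BCL2L1, which restrain overlapping but different sets of death proteins, changed places within the guardians. MCL1 had 1.32 times the FPKM of BCL2L1 in adherent HCT116 cells (interval 1.26 to 1.38) and 0.609 times in HCT116 spheroids (interval 0.581 to 0.639). In LOVO it had 8.34 times in adherent cells (interval 7.75 to 8.98) and 6.22 times in spheroids (interval 5.79 to 6.70). HCT116 spheroids were the one library in which BCL2L1 was above MCL1. PMAIP1 stood at 1.11 times MCL1 in adherent HCT116 cells (interval 1.06 to 1.17) and at 0.842 times in HCT116 spheroids (interval 0.790 to 0.898). The same ratio was 0.365 (interval 0.346 to 0.385) in adherent LOVO cells and 0.252 (interval 0.234 to 0.270) in LOVO spheroids. The messenger of the MCL1 ligand NOXA was lower relative to MCL1 in the spheroids of both lines.

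**Figure D3:**
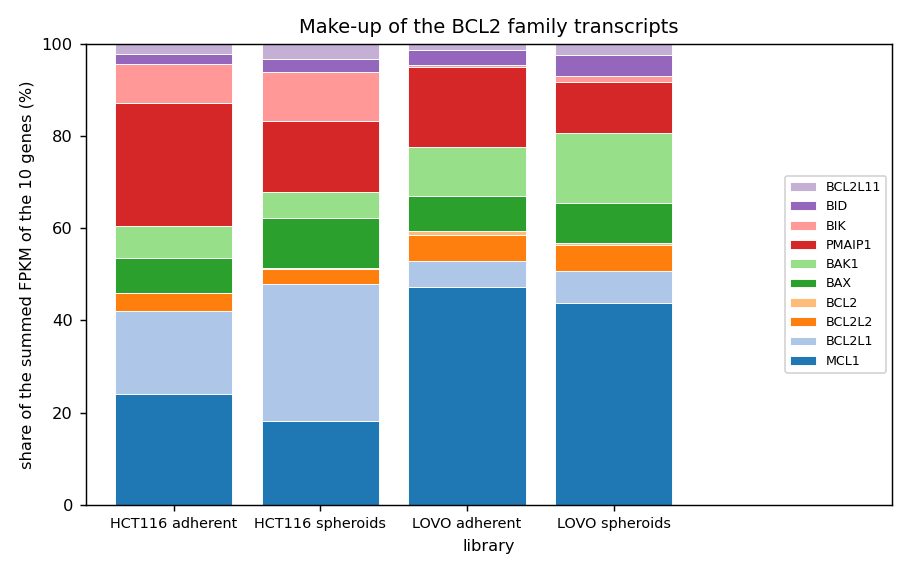
Share of the summed FPKM of the 10 genes (percent) taken by each gene in each of the 4 libraries. Bars are single libraries and have no error. MCL1 takes 23.9% and 18.1% in the HCT116 libraries and 47.2% and 43.8% in the LOVO libraries, while BCL2L1 takes 18.1% and 29.7% against 5.66% and 7.03%.

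Between the lines, 2 members stood out on the log2(FPKM + 1) scale. The difference of log2(FPKM + 1), LOVO minus HCT116, was -3.58 for BIK in adherent cells and -3.01 in spheroids, and -1.67 and -2.42 for BCL2L1. Both LOVO libraries were below both HCT116 libraries for each of these genes. ABALON, antisense to BCL2L1, was lower in LOVO too, with 10.6 and 19.2 FPKM in HCT116 and 0.410 and 1.07 in LOVO. Its part in the BCL2L1 difference between the lines was not tested. The LOVO level of BIK was 0.0396 times the HCT116 level in adherent cells and 0.0893 times in spheroids, and the LOVO level of BCL2L1 was 0.298 and 0.175 times. The counting intervals of the log2 ratios were -5.54 to -3.90 and -3.97 to -3.03 for BIK, and -1.86 to -1.63 and -2.63 to -2.41 for BCL2L1. In the limma fit, with growth forms standing in for replicates, BIK had a mean difference of -3.29 (SE 0.27) and a limma adjusted p of 0.00636, with a range over the alternatives from 0.00266 to 0.0199. BCL2L1 had a mean difference of -2.05 (SE 0.30) and a limma adjusted p of 0.0152, with a range from 0.0123 to 0.0260. These p-values rest on how far the difference between lines varied between growth forms, moderated over all genes. They hold no variation between cultures, since each line had 1 library per growth form.

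Genes called between the lines were common. The fit called 3564 of 14429 genes, or 24.7%, so 2 of 9 members was near the share over all genes. Past 2 in size, the log2 difference held for 1 of 9 members (BIK) in adherent cells, against 10.9% of all genes, and for 2 of 9 (BIK and BCL2L1) in spheroids, against 10.4%. Past 1 in size it held for BIK and BCL2L1 in both, against 33.8% in adherent cells and 32.7% in spheroids.

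The other members differed less between the lines on the log2(FPKM + 1) scale. Without the pseudocount BCL2 differed more than BCL2L1 in adherent cells, with log2 ratios of 2.64 and -1.74. MCL1 was 1.89 times as high in adherent LOVO cells as in adherent HCT116 cells and 1.78 times as high in the spheroids. Its limma adjusted p was 0.0694, with a range over the alternatives from 0.0474 to 0.188. PMAIP1 was at 0.618 times the HCT116 level in adherent LOVO cells and at 0.533 times in LOVO spheroids, with a limma adjusted p of 0.0816. BAK1 was at 1.45 and 1.95 times (limma adjusted p = 0.104) and BCL2L11 at 0.597 and 0.509 times (limma adjusted p = 0.101). BAX, BID and BCL2L2 had limma adjusted p-values from 0.320 to 0.379. BCL2, outside the fit, was at 6.22 times the HCT116 level in adherent LOVO cells, with a log2 ratio of 2.64 (interval 2.29 to 3.0), and at 1.23 times in spheroids, where the interval of the log2 ratio from -0.08 to 0.69 included 0.

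**Figure D4:**
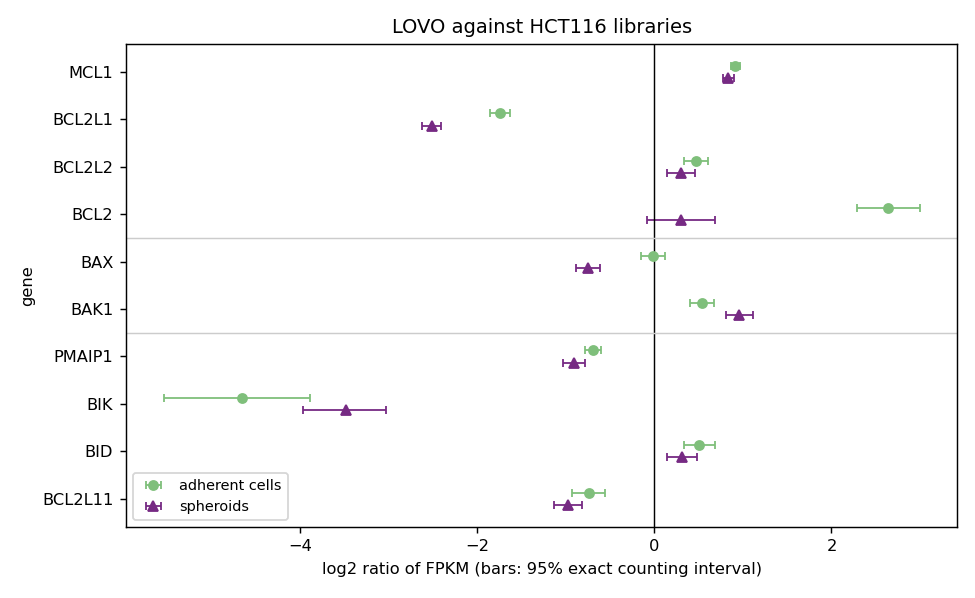
Log2 ratio of FPKM in LOVO to HCT116 libraries for each of the 10 genes, in adherent cells (circles) and spheroids (triangles). Bars are 95% exact counting intervals. BIK and BCL2L1 lie below -1.6 in both growth forms, and MCL1 and BAK1 lie above 0 in both.

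For BIK and BCL2L1, the members whose level spanned at least 2 log2 units over the libraries, the genes with the most similar pattern were identified by Euclidean distance of mean-centred log2(FPKM + 1) over the 4 libraries. The nearest to BIK were CYP24A1 (distance 0.14), a vitamin D hydroxylase, TGFA (0.18), a ligand of the EGF receptor, and TRIB1 (0.24), a pseudokinase. The nearest to BCL2L1 were ENPP5 (distance 0.12), B3GNT7 (0.12) and ZNF608 (0.13). ENPP5 had 2.51 and 4.05 FPKM in HCT116 and was listed at 0 in both LOVO libraries. ZNF608 stood at 0 in adherent LOVO cells and at 0.00718 FPKM in LOVO spheroids. BCL2L1 kept 13.3 and 12.2 FPKM in LOVO. The likeness to these low genes thus holds on the log2(FPKM + 1) scale, where the pseudocount limits their change, and not for ratios of FPKM. With 4 libraries such likeness describes these samples alone.

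The family holds further genes that the list above does not include, and 13 of them were read in the same way. Of these, 9 passed the filter on low values. BBC3 (PUMA), a BH3-only protein, had 16.8 FPKM in adherent and 12 in spheroid HCT116 cells, and 1.98 in adherent and 4.17 in spheroid LOVO cells. Of the 9 genes tested it was the one called between the lines, against 24.7% of all genes, with a mean log2 difference of -1.95 (limma adjusted p = 0.0265). BMF, a BH3-only protein released upon loss of attachment, was higher in both spheroid libraries, at 1.59 and 3.30 FPKM in HCT116 and at 0.287 and 1.08 in LOVO. BCL2L12 went from 22.1 to 7.95 FPKM in HCT116 and from 20.8 to 17.6 in LOVO. HRK, a BH3-only protein best known from neurons, went from 2.82 FPKM to 0.102 in LOVO, from 346 to 14 reads, and was at 1.05 and 0.903 in HCT116.

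The mitophagy receptors BNIP3 and BNIP3L lay between 10.1 and 24.2 FPKM in every library. BAD, a BH3-only protein controlled by phosphorylation, stood between 10.5 and 14.0 FPKM, and the effector relative BOK between 7.42 and 12.5. BCL2L13, another mitophagy receptor, stood between 7.68 and 12.5 FPKM. BCL2A1, a guardian of blood cells, was at 0 in 3 libraries and at 0.274 FPKM (6 reads) in LOVO spheroids. BCL2L10, BCL2L14 and BCL2L15 were at 0.140 FPKM or less in each library. In the spheroid comparison 0 of the 9 were called by limma, as were 0 of all 14429 genes. In HCT116, 1 of the 9 (BCL2L12) was lower by more than 1 log2 unit, against 3.33% of all genes. In LOVO it was 1 of the 9 (HRK), against 7.85% of all genes.

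Downstream of the pores, 13 of 14 genes of the apoptosome, mitochondrial release and caspases list passed the filter, with 4 higher and 9 lower in HCT116 spheroids and 2 higher and 11 lower in LOVO spheroids. Their median log2 change was -0.22 in HCT116 and -0.50 in LOVO. CASP9, the caspase activated on the apoptosome, had 3.88 FPKM in adherent and 2.45 in spheroid HCT116 cells, and 62.0 in adherent and 4.9 in spheroid LOVO cells. The adherent LOVO library stood apart for this gene. CASP6 had the highest change of the list in HCT116 (0.29) and HTRA2 in LOVO (0.14).

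Among the inhibitor of apoptosis proteins, 5 of 7 genes passed, with 4 higher and 1 lower in HCT116 spheroids and 3 higher and 2 lower in LOVO spheroids. BIRC5 (survivin), a protein also needed for cell division, went from 40.9 to 5.79 FPKM in HCT116 and from 40.9 to 15 in LOVO. BIRC3, an NF-kappa-B target, was at 4.12 and 4.17 FPKM in HCT116 and went from 12.3 to 349 FPKM in LOVO. BIRC6 had the highest change of the list in HCT116, at 0.51, and changed by 0.36 in LOVO.

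In the death receptor pathway, which reaches mitochondria through BID, 13 of 14 genes passed and 7 were higher in HCT116 spheroids and 8 in LOVO spheroids. TNFSF10 (TRAIL), the ligand, was at 0 and 0.0857 FPKM in HCT116 and at 2.12 and 13.6 in LOVO. The decoy receptor TNFRSF10D had 28.0 and 52.7 FPKM in HCT116 and 1.70 and 3.53 in LOVO, and the signalling receptor TNFRSF10B had 87.6 and 53.9 against 38.4 and 30.8. Between the lines, limma called 2 of the 13 higher and 1 lower in LOVO, near the 24.7% called over all genes.

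Of 10 regulators of the members, 8 were lower and 2 higher in HCT116 spheroids, and 8 were lower and 2 higher in LOVO spheroids. Over all genes compared, 45.8% were higher in HCT116 spheroids and 45.5% in LOVO spheroids. Some of the lower values were near 0. FOXO3 in HCT116 turned to above 0 under TPM and when centred on the median. MYC and TP73 in LOVO did so under these settings and under TMM-style scaling. DDIT3 (CHOP), a stress-response factor, went from 189 to 9.11 FPKM in HCT116 and from 36.1 to 11.9 in LOVO. ATF4, which acts upstream of DDIT3 and PMAIP1 and is named here after its values were seen, went from 291 to 149 FPKM in HCT116 and from 287 to 129 in LOVO, changes of -0.96 and -1.14 on the log2(FPKM + 1) scale. STAT3 was the highest of the list in LOVO by change (0.36) and USP9X, a deubiquitinase of MCL1, the highest in HCT116 (0.20) and -0.40 in LOVO. None of the 10 was called between growth forms by limma, and neither was any other of the 14429 genes compared. Whether the level of ATF4 has a part in that of PMAIP1 was not tested. Medium and drug changed together with growth form for both genes.

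**Figure D5:**
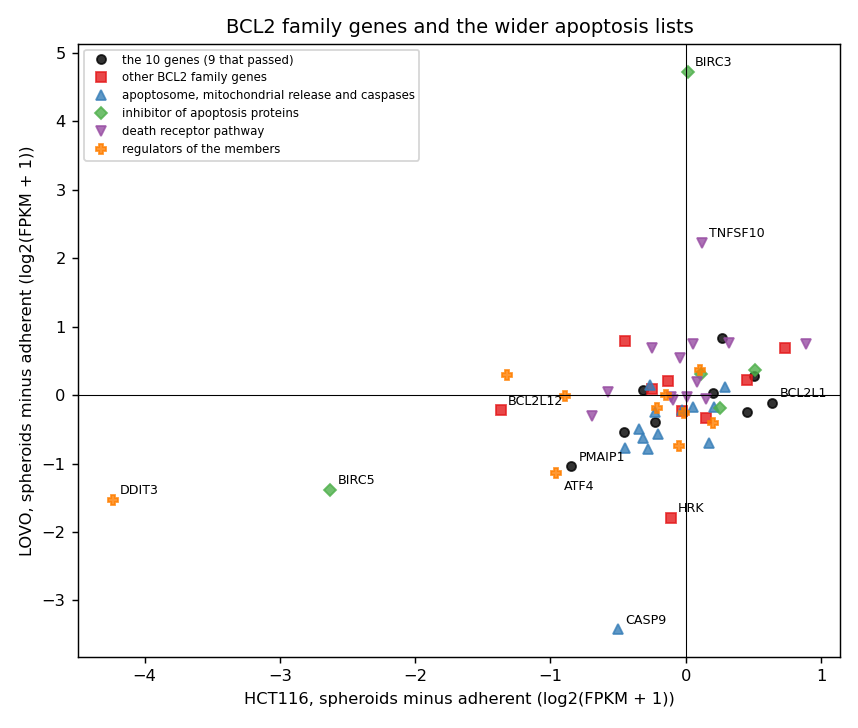
Difference of log2(FPKM + 1) between spheroids and adherent cells in HCT116 (horizontal axis) and LOVO (vertical axis) for the genes that passed the filter, with a symbol for each list. PMAIP1 lies near ATF4 in the lower left, BIRC3 at 4.72 and CASP9 at -3.42 mark the ends in LOVO, and DDIT3 at -4.23 the end in HCT116.

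The promoters of 7 of the 10 members were read from RefSeq on GRCh38.p14, over 250 bases before and 50 after each annotated start. MCL1, BCL2L2 and BIK had no entry in the table. The motifs searched on both strands were the ATF/CREB half-site TGACGT, the E-box CACGTG, the composite motif TGATGNAA and the GC box GGGCGG. The PMAIP1 promoter is shown because PMAIP1 had the largest spheroid change on the log2(FPKM + 1) scale in both lines, and the BAX promoter because it held the most E-boxes. PMAIP1 was the one member with an ATF/CREB half-site, 56 bases before the start, and 7.98% of 35116 promoters hold one. BAX held 4 E-boxes, at 138, 93, 45 and 14 bases before the start, and 7.26% of all promoters hold at least 1. The composite motif was in none of the 7 and in 3.62% of all promoters. The lines below end at the last base before the gene as GENCODE annotates it, so the first holds the half-site and the second 2 of the 4 E-boxes, in capitals. They cover chr18:59899880-59899947 and chr19:48954722-48954814, both on the plus strand.
PMAIP1: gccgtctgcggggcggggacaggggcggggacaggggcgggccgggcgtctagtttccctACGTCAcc
BAX: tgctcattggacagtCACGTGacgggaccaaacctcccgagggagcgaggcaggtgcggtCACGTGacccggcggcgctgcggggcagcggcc

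The GC box was present in the promoters of BAK1, BAX, BCL2L1, BCL2L11, BID and PMAIP1, and in 45.0% of all promoters. A match of letters describes the window and is no measurement of binding. Any part of the half-site in the PMAIP1 change was not tested.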

How the data were processed

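The authors deposited a table of FPKM per gene for the 4 libraries, prepared with a SMARTER mRNA-Seq kit from total RNA. The aligner, the counter and its use of strand are not given in the sources used here. The labels list a mouse genome build, but all 58735 gene IDs are human and 100% of their positions equal those of GENCODE 29 on GRCh38. Multiplied by gene length, 100% of the FPKM above 0 were whole multiples of 1 step per library (within 0.01), and these recovered reads gave the counting intervals. The library sizes inside the FPKM were 0.907 to 1.09 times the reads on genes. Groups came from the sample titles. Differences were taken on log2(FPKM + 1) where the mean FPKM over the libraries reached 1 (14429 genes). limma 3.58.1 (lmFit, eBayes with trend, R 4.3.3) was fitted to all 4 libraries with line and growth form, with Benjamini-Hochberg adjustment at 0.05. It was also run on simulated reads in which the lines did not differ, so that run does not check the fit for lines that do. Intervals are exact binomial (scipy 1.17.1) and cover counting error only, since reads without molecular identifiers are not independent molecules. A count of 3 reads on a gene of 1000 bases corresponds to 0.147 to 0.179 FPKM. The 10 members and all gene lists were chosen with earlier results of these data known. Named are all members, all other family genes and, in each other list, genes past 1 (log2) in 1 direction in both lines and the highest and lowest in each line, with the 3 nearest patterns of members that span at least 2 log2 units. Further genes named for contrast were chosen after their values were seen, including ATF4 and the markers quoted singly. Some genes of the wider lists are not reported here. DIABLO has 2 rows, of which the higher was used. Alternatives changed the pseudocount, scaling, filter, threshold and fit.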

Additional observations from a re-analysis of the deposited data

Results flagged for a closer look

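Several genes had spheroid differences of opposite sign in HCT116 and LOVO. Each line has 1 library per growth form, so the differences between the lines given here, as the LOVO change minus the HCT116 change in log2(FPKM + 1), were not tested. Among the 10 members the difference was -1.11 for BCL2, -0.752 for BCL2L1, -0.692 for BAX and 0.396 for BAK1. For BCL2L1 and BAK1 the counting interval of the LOVO change included 0, so the opposite direction in LOVO was not detectable at this depth, and under TPM the LOVO change of BCL2L1 turned to 0.08. Among the other family genes it was -0.482 for BOK, 0.337 for BAD, 1.25 for BBC3, 0.345 for BCL2L13 and -0.0422 for BCL2L15, whose reads numbered from 7 to 20. The counting intervals of BOK and BAD in HCT116, and of BCL2L15 in both lines, included 0, so no opposite change was detectable for these 3 genes. Among the wider lists it was 0.411 for HTRA2, a protease released from mitochondria, and -0.607 for USP9X.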

How the results depend on the processing

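At a threshold of 1 in place of 2 (log2), 1 member passed in LOVO spheroids and 2 passed between the lines in adherent cells. Other counts of members past the threshold kept their value under the other settings. With a mean FPKM of at least 5, limma called 1887 genes between the lines in place of 3564, with 8146 in place of 14429 genes tested. Under the other settings limma called 2624 to 4078 genes between the lines, and 0 between growth forms, where 163 to 2431 genes had an unadjusted p under 0.05. A member difference was counted as moved if its shift was at least the distance from the middle to the end of its counting interval. A moved value can still lie inside that interval. Rescaling to TPM moved 18 of 40 member differences and turned 2 small ones. That of BCL2L1 between LOVO spheroids and adherent cells went from -0.11 to 0.08. That of BAX between the lines in adherent cells went from -0.02 to 0.02. In the wider lists some small changes turned sign as well. TPM shifted the median of all genes by more than 0.1 in both comparisons that used LOVO spheroids, from -0.06 to 0.10 within LOVO and from 0.04 to 0.26 between spheroids. TMM-style scaling moved 0 of the 40, centring on the median 2, and each smaller pseudocount 3. The fit over both lines is paired by cell line, and without that covariate 0 genes were called between growth forms, the smallest limma adjusted p being 1 in place of 0.462. No replicate could be left out, since each condition had 1 library. Depth limits BCL2, with 81 to 443 reads, and BIK in LOVO, with 14 and 43.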
